A study of Mus musculus with 18 samples.

Results

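The proteasome genes of the mouse were followed through 9 libraries of RAW264.7 macrophages and 9 libraries of liver. Members were the table rows whose symbol is Psma, Psmb, Psmc, Psmd, Psme, Psmf or Psmg with a number, kept in a tissue where their mean FPKM (fragments per kilobase of transcript, scaled for library depth) over its 9 libraries was above 1. Both tables held 48 such genes of 21441, and 47 were kept in each, 46 of them in both tissues. In macrophages Psmb11, at a mean of 0.326 FPKM, was left out, and the lowest member kept was Psme4 at 11.7. In liver Psma8, at 0.0216, was left out, and the lowest kept was Psmb11 at 1.46. They were tested among the 9905 genes of the macrophage table and the 10147 of the liver table that passed the same minimum. The 5 genes Psmb8, Psmb9, Psmb10, Psme1 and Psme2 are called inducible below, and 41 others constitutive in each tissue. Psma8, a form of an alpha subunit known from testis, and Psmb11, a catalytic subunit known from the thymus, belong to neither.

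RAW264.7 is a mouse macrophage-like cell line, grown here as control, with lipopolysaccharide (LPS) or with LPS and moringa isothiocyanate-1 (MIC-1), with 3 libraries each. The design text names 10 µM MIC-1, and the labels print for these cultures the doses of the mouse experiment, 10 mg/kg LPS and 80 mg/kg MIC-1, and the strain of the mice. The livers came from wild-type C57BL/6 male mice, also 3 per group. MIC-1 mice received 80 mg/kg MIC-1 in DMSO by gavage for 3 days, then 10 mg/kg LPS into the peritoneum. LPS mice received the same LPS dose, control mice were vehicle animals injected with saline, and all livers were taken at 16 h. The comparison of LPS with control asks how the genes respond to the endotoxin, and that of LPS+MIC-1 with LPS asks what the isothiocyanate changes. The dose is described as standardised to the MIC-1 content of an extract that the labels call MSE. The study itself describes MIC-1 purified from that extract before use. No group received MIC-1 alone.

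The proteasome degrades proteins tagged with ubiquitin. Its core is a barrel of alpha and beta subunits, and 3 of the beta subunits cut proteins: Psmb5, Psmb6 and Psmb7. Interferon gamma induces their counterparts Psmb8, Psmb9 and Psmb10, which take their places in newly built cores and give the immunoproteasome. Psme1 and Psme2 form the interferon-induced activator ring that opens the core. The immunoproteasome is known for cutting peptides for display on class I molecules, and macrophages carry it without stimulation. The regulatory cap, made of Psmc ATPases and Psmd subunits, recognises and unfolds the ubiquitin-tagged substrate.

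Psmb8 (chr17:34334666-34338399, plus strand) and Psmb9 (chr17:34318932-34324697, minus strand) lie close together in the class II region of the major histocompatibility complex, and Psme1 (chr14:56196960-56200366, plus strand) and Psme2 (chr14:56206278-56209950, minus strand) are neighbours. Psmb10 lies at chr8:108459628-108462292, minus strand, and the constitutive counterparts Psmb5 at chr14:55232644-55236851, minus strand, Psmb6 at chr11:70338869-70341360, plus strand and Psmb7 at chr2:38443556-38499607, minus strand, all in the mm9 build with the gene bounds of GENCODE vM1. Promoters, taken from RefSeq in the GRCm38.p6 build as 250 bases before to 50 after the start, were found for 40 of the members, and Psmb7 was not among them. Both strands were searched for 5 motifs. A member was counted if any of its promoter entries held the motif, but the share of all promoters counts single entries. A member with several entries thus had more chances, and the member counts are not a like measure. The interferon element GAAANNGAA was in 7 of the 40, against 8.56% of all 32851 promoters. The GAS letters TTCNNNGAA were in 3 of 40 against 8.3%, and the kappaB letters GGGANTTNC in 3 of 40 against 4.26%. The antioxidant element TGACNNNGC, the kind of site that Nrf2 and its relative Nfe2l1 bind, was in 6 of 40 against 12.4%, and the NF-Y box CCAAT in 14 of 40 against 37.4%. Among the inducible genes Psme1 held an interferon element, Psmb8 a GAS and Psmb9 an NF-Y box, and none of these letters were in the windows of Psmb10 and Psme2. The constitutive counterparts Psmb5 and Psmb6 held an antioxidant element. The 5 promoters shown are those of the inducible genes and their catalytic counterparts that held a match. They include the pairs Psmb8 and Psmb5, and Psmb9 and Psmb6. Capitals mark the matched letters on the printed strand, which reads 5′ to 3′, and no match overlapped another.
Psmb8 promoter, chr17:34197945-34198244, plus strand: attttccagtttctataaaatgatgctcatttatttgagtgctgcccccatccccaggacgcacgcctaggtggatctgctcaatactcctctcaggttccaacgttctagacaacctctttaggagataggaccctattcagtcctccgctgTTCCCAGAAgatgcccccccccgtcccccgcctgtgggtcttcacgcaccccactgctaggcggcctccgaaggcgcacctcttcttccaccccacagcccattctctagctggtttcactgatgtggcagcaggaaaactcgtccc
Psmb9 promoter, chr17:34187281-34187580, minus strand: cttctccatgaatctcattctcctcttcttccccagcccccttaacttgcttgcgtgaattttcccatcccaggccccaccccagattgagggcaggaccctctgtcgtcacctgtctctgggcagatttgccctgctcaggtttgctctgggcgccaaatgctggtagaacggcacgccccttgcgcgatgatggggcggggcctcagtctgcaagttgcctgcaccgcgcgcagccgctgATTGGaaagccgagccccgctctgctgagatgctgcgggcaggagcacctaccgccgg
Psme1 promoter, chr14:55578244-55578543, plus strand: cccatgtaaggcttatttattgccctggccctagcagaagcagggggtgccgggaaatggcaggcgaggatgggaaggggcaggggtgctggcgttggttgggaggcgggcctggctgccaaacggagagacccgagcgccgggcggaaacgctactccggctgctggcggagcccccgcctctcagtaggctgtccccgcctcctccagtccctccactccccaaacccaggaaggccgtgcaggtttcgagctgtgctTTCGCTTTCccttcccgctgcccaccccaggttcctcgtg
Psmb5 promoter, chr14:54617946-54618245, minus strand: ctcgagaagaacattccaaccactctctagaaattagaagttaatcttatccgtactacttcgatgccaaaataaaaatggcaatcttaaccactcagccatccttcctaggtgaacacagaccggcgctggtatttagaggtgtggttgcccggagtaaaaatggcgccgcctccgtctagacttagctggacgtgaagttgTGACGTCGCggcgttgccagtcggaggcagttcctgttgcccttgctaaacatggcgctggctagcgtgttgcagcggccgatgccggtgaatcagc
Psmb6 promoter, chr11:70525107-70525406, plus strand: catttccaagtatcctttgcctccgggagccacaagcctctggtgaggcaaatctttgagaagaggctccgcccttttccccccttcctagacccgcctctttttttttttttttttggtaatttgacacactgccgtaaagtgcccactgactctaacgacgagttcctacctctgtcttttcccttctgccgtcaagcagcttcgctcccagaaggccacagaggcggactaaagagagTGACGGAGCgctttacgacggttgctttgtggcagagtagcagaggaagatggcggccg
The matched letters begin at base 154 of the Psmb8 window, 243 of Psmb9, 261 of Psme1, 204 of Psmb5 and 242 of Psmb6. The match in Psmb9 and that in Psme1 are on the strand opposite to the one printed. A match describes the letters only.

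One macrophage library went against its label. Over the 9905 genes, LPS library 2 had a Pearson correlation of log2 values of 0.980 to 0.990 with the 3 controls, but 0.862 and 0.860 with LPS libraries 1 and 3. Of the 47 members, 43 were nearer in this library to the control mean than to the mean of the other LPS libraries, against 4 and 5 for LPS libraries 1 and 3. The study describes its own macrophage analysis with fewer LPS libraries than the labels list, and which was left out is not given in the sources used here. The library stays in its labelled group, and each macrophage comparison that uses the LPS group is given with all 9 libraries and without LPS library 2. The columns carry no replicate numbers, and libraries are numbered by their place in the table. Libraries 1 and 3 of each macrophage group resembled each other more than either resembled library 2 (0.986 to 0.991), as did libraries 1 and 3 of the LPS and LPS+MIC-1 livers (both 0.979). LPS liver 2 had a correlation of 0.889 and 0.893 with LPS livers 1 and 3. In it 18 of 47 members were nearer to the control mean, against 4 and 2 for LPS livers 1 and 3. Nothing in the labels says that the macrophage libraries were separate cultures, so their p-values measure only the spread between libraries.

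No read counts were used, but the steps between low FPKM values put the depth at an estimated 13600000 to 17600000 reads in the macrophages and 3610000 to 15500000 in the livers, with control livers 2 and 3 the shallowest. The control livers stood at 8340000, 3710000 and 3610000 reads and the LPS livers at 14800000, 9780000 and 14900000. The LPS+MIC-1 livers stood at 15500000, 11500000 and 14900000. Every control liver was thus shallower than every treated liver, and the part of depth in the liver differences was not tested. The sum of all FPKM was 1137533 and 1132904 in macrophage LPS libraries 1 and 3 and from 557136 to 652486 in the other 7. Giving every library the same sum (equal sums, below) moved the median log2 fold change of all genes in the macrophages from -0.025 to -0.65 for LPS against control, from -0.0077 to 0.44 for LPS+MIC-1 against LPS and from -0.036 to -0.21 for LPS+MIC-1 against control. In liver it moved from 0.15 to -0.18, from -0.0093 to -0.26 and from 0.15 to -0.43 in the same order. Another scaling, the median of ratios, put these medians at -0.0071, -0.0014 and -0.011 in macrophages. For liver its medians were 0.065, -0.020 and 0.058. Which scale is right was not tested. Ratios of 2 genes within a library do not depend on this choice. Macrophage markers (Lyz2, Csf1r, Itgam, Emr1 and Ptprc) summed to 9444 to 11381 FPKM in RAW264.7, and 6 hepatocyte markers to at most 12.9. A list of 7 neutrophil genes summed to 1.72 to 4.71 FPKM in control and LPS macrophages and to 23.5 to 39.8 in the LPS+MIC-1 libraries. The hepatocyte markers, Alb among them and 1 of 6 called lower with LPS, summed to 40572 to 79452 FPKM in control livers, 35082 to 45454 under LPS and 34790 to 44758 under LPS+MIC-1.

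In macrophages, the inducible genes were expressed in the control cells within the range of the constitutive subunits, and 4 of them were lowest with LPS+MIC-1. The mean FPKM of the 41 constitutive genes in control cells ran from 11.8 for Psme4, an activator of the nucleus, to 393 for Psmb4, a beta subunit, with a median of 119. Psmb8, the counterpart of Psmb5, read 188, 234 and 178 FPKM in control libraries 1, 2 and 3, 173, 226 and 189 under LPS and 101, 73.8 and 99 under LPS+MIC-1. The control and LPS values overlap, and all 3 LPS+MIC-1 values lie below both. Psmb9, the counterpart of Psmb6, read 106, 136 and 103 in control, 83.5, 129 and 92 under LPS and 40.0, 20.4 and 39.8 under LPS+MIC-1. Psmb10, the counterpart of Psmb7, read 104, 99.2 and 101 in control, 60.4, 104 and 55.2 under LPS and 31, 28.8 and 32.7 under LPS+MIC-1. For both genes the LPS+MIC-1 libraries were again the lowest, and LPS library 2 lay within or above the control values while libraries 1 and 3 lay below the controls.

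The activator genes parted from each other. Psme1 read 260.4, 284 and 247 FPKM in control, 234, 282 and 240.3 under LPS and 137, 111 and 135 under LPS+MIC-1. Psme2 read 278, 318 and 266 in control, 501, 320.0 and 488 under LPS and 292, 268 and 285 under LPS+MIC-1. Psme2 was thus higher in LPS libraries 1 and 3 than in any other library, whereas Psme1 was highest in control library 2 and lowest in the 3 LPS+MIC-1 libraries. The ratio of Psme2 to Psme1 was 1.07, 1.12 and 1.08 in control, 2.14, 1.13 and 2.03 under LPS and 2.13, 2.40 and 2.10 under LPS+MIC-1.

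The constitutive catalytic subunits did not share these patterns. Psmb5 read 228, 253 and 229 FPKM in control, 197, 234 and 219.6 under LPS and 272, 317 and 262 under LPS+MIC-1. Psmb6 read 234, 239 and 227 in control, 739.5, 250.1 and 778 under LPS and 279, 310.4 and 279 under LPS+MIC-1. Psmb7 read 226, 217 and 209.9 in control, 301, 219 and 317 under LPS and 209.7, 224 and 205 under LPS+MIC-1. Psmb5 was highest in the LPS+MIC-1 libraries, while Psmb6 and Psmb7 were highest in LPS libraries 1 and 3.

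**Figure D1:**
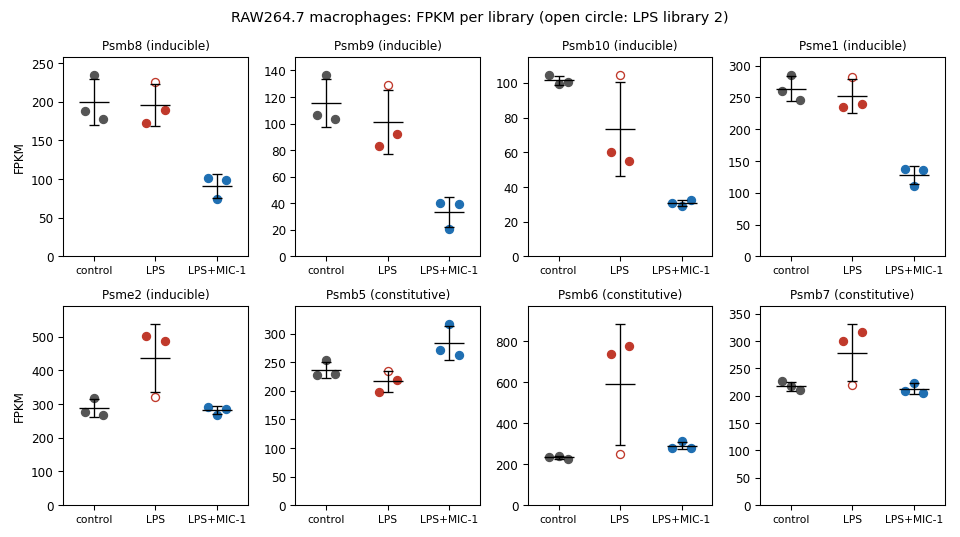
FPKM of the 5 inducible genes and the 3 constitutive catalytic subunits in each of the 9 macrophage libraries, with the mean and SD of each group (n = 3). Psmb8, Psmb9, Psmb10 and Psme1 are lowest in the 3 LPS+MIC-1 libraries, and LPS library 2, the open circle, sits with the controls for Psmb6, Psmb10 and Psme2.

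For LPS against control in macrophages, no member was called (adjusted p under 0.05, limma with Benjamini-Hochberg adjustment over all genes tested) with all 9 libraries, and the background was 0% higher and 0% lower. At an unadjusted p under 0.05 there were 17 of 47 members and 4928 of all 9905 genes, and the lowest adjusted p of any gene was 0.0777. Without LPS library 2, 29 of 47 members were called, 13 higher and 16 lower, against a background of 36.9% of genes higher and 38.2% lower. With the sums also made equal, the split was 4 higher and 42 lower, against 11.8% of genes higher and 71% lower. Under the stricter rule (adjusted p under 0.01 and an absolute log2 fold change above 1), 7 members were called without LPS library 2, 4 higher and 3 lower, against a background of 34.2%, and 0 with it, as for 0% of all genes.

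Without LPS library 2, the inducible genes split: Psme2 rose by 0.79 ± 0.085 (SE, adjusted p = 8.2e-05) on the log2 scale, Psmb10 was lower at -0.81 ± 0.075 (SE, adjusted p = 3.66e-05), and the other 3 were not called. Psmb8 stood at -0.13 ± 0.16 (SE, adjusted p = 0.49), Psmb9 at -0.38 ± 0.28 (SE, adjusted p = 0.249) and Psme1 at -0.15 ± 0.11 (SE, adjusted p = 0.225). With equal sums as well, all 5 were called lower: Psme2 turned to -0.20 (adjusted p = 0.0263), and Psmb8 lay at -1.12, Psmb9 at -1.37, Psmb10 at -1.79 and Psme1 at -1.14. The median over the 5 inducible genes was -0.15 and over the 41 constitutive genes -0.039, beside -0.025 for all genes tested. With all 9 libraries these medians were -0.067, -0.064 and -0.025.

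Among the constitutive genes with the largest changes under LPS, several were parts of the cap and the core. Psmd8, a subunit of the lid of the cap, read 278, 319 and 280.4 FPKM in control, 1685, 317 and 1744 under LPS and 401, 445 and 408 under LPS+MIC-1. It stood at 1.74 ± 0.58 (SE, adjusted p = 0.0777) over 9 libraries and rose 5.86-fold, by 2.55 ± 0.082 (SE, adjusted p = 6.58e-07) on the log2 scale, without LPS library 2. In LPS libraries 1 and 3 it had the highest FPKM of all members. Psmd11, a lid subunit that ties the cap to the core, read 90.2, 84.5 and 94.3 in control, 260.4, 77.8 and 259 under LPS and 168, 209 and 169 under LPS+MIC-1. It rose by 1.53 ± 0.11 (SE, adjusted p = 8.45e-06) against control without LPS library 2, where Psmb6 rose by 1.70 ± 0.069 (SE, adjusted p = 1.34e-06) and Psma6, an alpha subunit, by 1.23 ± 0.081 (SE, adjusted p = 7.03e-06). With equal sums Psmd8 lay at 1.56, Psmb6 at 0.71 and Psmd11 at 0.54. Psmb1, a beta subunit without catalytic activity, rose by 0.85 ± 0.067 (SE, adjusted p = 1.53e-05) and Psmb7 by 0.50 ± 0.066 (SE, adjusted p = 0.000223), but Psmb7 turned to -0.49 (adjusted p = 0.000208) with equal sums, and Psmb1 also changed sign under that scale, to -0.14.

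Other members lay lower in LPS libraries 1 and 3. Psmg1, a chaperone of alpha ring assembly, read 51.7, 41.1 and 47.1 FPKM in control, 14.3, 46.4 and 16.8 under LPS and 27.9, 35.1 and 28.9 under LPS+MIC-1. Psmc4, an ATPase of the cap, read 140.5, 136 and 141 in control, 61.4, 139 and 60.1 under LPS and 117, 128 and 119 under LPS+MIC-1. In both genes LPS library 2 lay at the control level, and the LPS+MIC-1 values lay between the controls and LPS libraries 1 and 3. Leaving that library out, Psmg1 fell (log2 -1.55 ± 0.14 SE, adjusted p = 2.65e-05) and Psmc4 was lower at -1.19 ± 0.061 (SE, adjusted p = 2.77e-06). The lid subunits Psmd6 and Psmd7 were lower at -1.22 ± 0.11 (SE, adjusted p = 3.38e-05) and -0.81 ± 0.12 (SE, adjusted p = 0.000364). Psme3, an activator of the nucleus that interferon does not induce, read 85.8, 76.9 and 86.2 FPKM in control, 58, 80.2 and 61.2 under LPS and 63.4, 71.3 and 62.1 under LPS+MIC-1, and was lower with LPS at -0.47 ± 0.085 (SE, adjusted p = 0.00133). Psme4 stood at -0.17 ± 0.11 (SE, adjusted p = 0.197). Of the 4 core assembly chaperones Psmg1 to Psmg4, 3 were called lower and 0 higher. Of the 7 alpha subunits, 2 were higher and 3 lower. Of the 7 constitutive beta subunits, 4 were higher and 1 lower, of the 6 ATPases 1 and 3, and of the 11 other cap subunits 3 and 3. These counts by role leave out LPS library 2 and stand beside 36.9% of all genes higher and 38.2% lower.

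Between LPS+MIC-1 and LPS macrophages, all 5 inducible genes were lower and no constitutive gene was called. Psmb9 fell 3.09-fold, with a log2 fold change of -1.63 ± 0.29 (SE, adjusted p = 0.00819). Psmb10 fell 2.26-fold (log2 -1.18 ± 0.22 SE, adjusted p = 0.0102), Psmb8 fell 2.15-fold (log2 -1.10 ± 0.18 SE, adjusted p = 0.00574) and Psme1 fell 1.97-fold (log2 -0.98 ± 0.13 SE, adjusted p = 0.00318). Psme2 fell 1.52-fold (log2 -0.60 ± 0.18 SE, adjusted p = 0.0498), close to the threshold. Leaving out any single library other than LPS library 2 ended that call, and its adjusted p ran from 0.000101 to 0.896 over 20 alternatives. Of all genes tested, 10.2% were called higher and 11.4% lower. Under the stricter rule 2 members were called, Psmb8 and Psmb9, both lower, against 3.87% of all genes.

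These single-gene calls depended in part on the setting. Over 20 alternatives, the calls of Psmb8, Psmb9 and Psme1 held in 17, that of Psmb10 in 16 and that of Psme2 in 5. Median-of-ratios scaling with all 9 libraries ended only the call of Psme2. Averaging the close libraries 1 and 3 of each group ended all 5 calls, and a fit of the 2 groups alone left 3 members called. With equal sums the log2 fold changes kept their sign, but none of the 5 was called: Psmb8 lay at -0.61, Psmb9 at -1.14, Psmb10 at -0.69, Psme1 at -0.48 and Psme2 at -0.11. The median of the inducible genes minus that of the constitutive genes was -1.08, a difference that a common factor per library cannot change apart from the pseudocount. The medians were -1.10 for the 5 inducible genes, -0.028 for the 41 constitutive genes and -0.0077 for all genes.

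Without LPS library 2, the 5 inducible genes were again all lower, at -1.44 for Psmb9, -0.90 for Psmb10, -0.89 for Psme1 and -0.81 for Psme2, and with a 2.00-fold fall of Psmb8 (adjusted p from 3.36e-05 for Psmb10 to 0.00261 for Psmb9). Now 23 constitutive genes were called too, 12 higher and 11 lower, so that 28 of 47 members passed against a background of 34% higher and 34.1% lower. With equal sums that split became 37 higher and 3 lower, against 67.3% of genes higher and 10.5% lower. The inducible genes then lay at -0.64 for Psmb9, -0.20 for Psmb8, -0.10 for Psmb10, -0.093 for Psme1 and -0.011 for Psme2, and none was called. The difference of the medians was -0.88. The stricter rule called 3 members, Psmb9, Psmb6 and Psmd8, all lower, against 23.3% of all genes. Psmd8 fell 4.10-fold (log2 -2.04 ± 0.082 SE, adjusted p = 2.59e-06), Psmb6 stood at -1.39 ± 0.069 (SE, adjusted p = 4.73e-06), Psmb1 at -0.96 ± 0.067 (SE, adjusted p = 1.45e-05) and Psma6 at -0.92 ± 0.081 (SE, adjusted p = 4.23e-05). Psmb5 rose by 0.44 ± 0.10 (SE, adjusted p = 0.00519), Psmc4 by 1.00 ± 0.061 (SE, adjusted p = 9.02e-06) and Psmg1 by 0.95 ± 0.14 (SE, adjusted p = 0.000496). Psmd11 stood at -0.52 ± 0.11 (SE, adjusted p = 0.00303) here, against 0.058 ± 0.42 (SE, adjusted p = 0.935) with all 9 libraries, and it turned to 0.28 (adjusted p = 0.049) with equal sums and without LPS library 2, and to 0.55 with equal sums alone. For Psmd8, Psmb6, Psmd11, Psmc4 and Psmg1 the LPS+MIC-1 values lay between the controls and LPS libraries 1 and 3. This comparison and that of LPS with control share the LPS libraries.

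Against control, a comparison that needs no LPS library, 4 of the 5 inducible genes were lower with LPS+MIC-1. Psmb9 fell 3.54-fold (log2 -1.82 ± 0.29 SE, adjusted p = 0.00431), Psmb10 fell 3.26-fold (log2 -1.70 ± 0.22 SE, adjusted p = 0.00205), Psmb8 fell 2.19-fold (log2 -1.13 ± 0.18 SE, adjusted p = 0.00439) and Psme1 fell 2.06-fold (log2 -1.05 ± 0.13 SE, adjusted p = 0.00196). In each of the 4 the 3 LPS+MIC-1 libraries lay below all 3 controls, and the call held in 18 of 19 alternatives, with equal sums among them. Averaging the close libraries 1 and 3 of each group ended it, with adjusted p from 0.129 to 0.151. Psme2 stood at -0.026 ± 0.18 (SE, adjusted p = 0.933). Of the 41 constitutive genes 2 were called: Psmd5, a chaperone of cap assembly, rose by 0.51 ± 0.12 (SE, adjusted p = 0.0184) and Psmd9, another, stood lower at -0.49 ± 0.14 (SE, adjusted p = 0.0371). The background was 11.8% of genes higher and 13% lower. The stricter rule called the same 4 inducible genes and no other member, against 5.59% of all genes.

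LPS library 2 enters this comparison only through the common estimate of spread. Without it, 23 members were called, 6 higher and 17 lower, among them the same 4 inducible genes, against 28.1% of genes higher and 32.2% lower. With equal sums the split was 3 higher and 28 lower, against 20.4% of genes higher and 42.6% lower. Psmd11 rose by 1.01 ± 0.094 (SE, adjusted p = 7.52e-05), Psmd8 by 0.51 ± 0.074 (SE, adjusted p = 0.000633), Psmb6 by 0.31 ± 0.061 (SE, adjusted p = 0.00325) and Psmb5 by 0.26 ± 0.089 (SE, adjusted p = 0.0375). All 4 core assembly chaperones were lower, from -0.74 for Psmg3 to -0.38 for Psmg4. The stricter rule called 5 members, the 4 inducible genes and Psmd11, against 15.7% of all genes. The median of the inducible genes minus that of the constitutive genes was -1.07.

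The ratio of an inducible catalytic subunit to its constitutive counterpart within a library is free of the scale. Psmb8 over Psmb5 was 0.824, 0.925 and 0.775 in control macrophages, 0.879, 0.966 and 0.862 under LPS and 0.371, 0.233 and 0.378 under LPS+MIC-1. Psmb9 over Psmb6 was 0.455, 0.570 and 0.455, then 0.113, 0.515 and 0.118, then 0.143, 0.0659 and 0.143. Psmb10 over Psmb7 was 0.461, 0.456 and 0.480, then 0.201, 0.475 and 0.174, then 0.148, 0.129 and 0.159. In the first ratio all 3 LPS libraries lay near the controls and far above LPS+MIC-1. In the second, LPS libraries 1 and 3 were as low as LPS+MIC-1, and in the third they lay just above it, with LPS library 2 among the controls in both. The 3 inducible subunits together made 36.7, 39.8 and 36.4% of the FPKM of the 6 catalytic subunits in control, 20.4, 39.5 and 20.4% under LPS and 18.4, 12.6 and 18.7% under LPS+MIC-1. These ratios and shares are descriptions without a test. By the share the LPS+MIC-1 libraries lay below every LPS and control library.

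**Figure D2:**
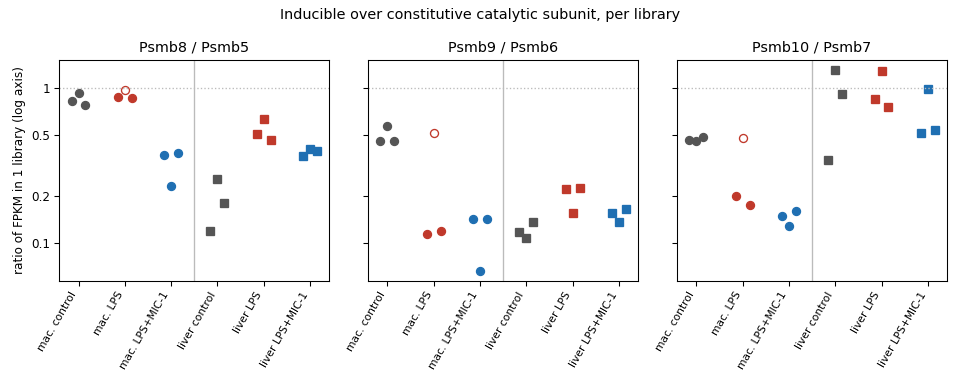
Ratio of FPKM of an inducible to its constitutive catalytic subunit in each library, on a log axis, for macrophages (circles, LPS library 2 open) and liver (squares). In macrophages Psmb8 over Psmb5 is 0.233 to 0.378 with LPS+MIC-1 and at least 0.775 in all other libraries, and in liver it is 0.118 to 0.258 in control and 0.366 to 0.630 with LPS or LPS+MIC-1.

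In liver the inducible genes rose with LPS, and none was called between LPS+MIC-1 and LPS. In control livers the constitutive genes had mean FPKM from 2.21 for Psmd10 to 334 for Psmb3, with a median of 41.1. Psmb8 read 13.9, 18.4 and 16.4 FPKM in control livers, 83.7, 110.0 and 96.8 under LPS and 79.1, 101 and 84.4 under LPS+MIC-1. Psmb9 read 21.8, 19.3 and 23.9 in control, 35.5, 48.8 and 38.6 under LPS and 32.1, 38.5 and 35.1 under LPS+MIC-1. Psmb10 read 24.1, 35.8 and 25.8 in control, 83.4, 97.7 and 92.3 under LPS and 67.5, 108 and 75 under LPS+MIC-1. In all 3 genes every LPS and LPS+MIC-1 liver lay above every control liver, and the LPS and LPS+MIC-1 livers overlapped.

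Psme1 read 168, 144 and 132 FPKM in control livers, 202, 259 and 231 under LPS and 239, 217 and 233 under LPS+MIC-1. Psme2 read 85.6, 109 and 103 in control, 141, 229 and 185 under LPS and 197, 253 and 201 under LPS+MIC-1. Here too the controls lay apart and the other groups overlapped. Psmb5 read 118, 71.2 and 90.7 in control, 165, 175 and 209.8 under LPS and 216, 249 and 216 under LPS+MIC-1. Psmb7 read 70.6, 27.3 and 28.4 in control, 98.3, 75.6 and 122 under LPS and 131, 109 and 140.0 under LPS+MIC-1. Both were lowest in the control livers. Psmb6 read 186, 179.7 and 175 in control, 161, 314 and 171 under LPS and 205, 283 and 211 under LPS+MIC-1, and its control and LPS livers overlapped. Bulk liver holds many cell types, and more cells of a type cannot be told apart from more RNA per cell.

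**Figure D3:**
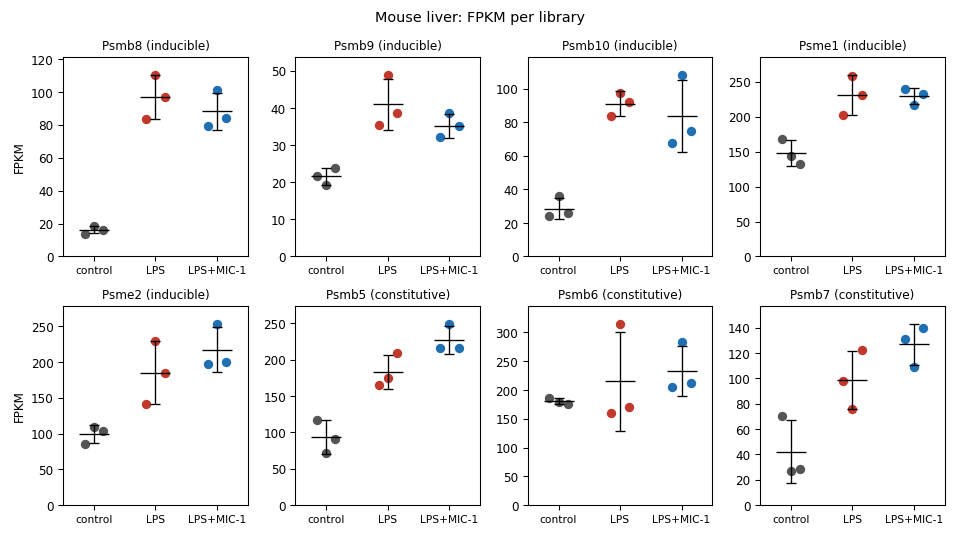
FPKM of the 5 inducible genes and the 3 constitutive catalytic subunits in each of the 9 livers, with the mean and SD of each group (n = 3). The 5 inducible genes, Psmb5 and Psmb7 are lowest in the 3 control livers, and the LPS and LPS+MIC-1 livers overlap in each inducible gene.

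For LPS against control in liver, 28 of 47 members were called, 25 higher and 3 lower, against a background of 19.2% of genes higher and 15.5% lower. Psmb8 rose 5.82-fold (log2 2.54 ± 0.19 SE, adjusted p = 0.000246), Psmb10 3.19-fold (log2 1.68 ± 0.23 SE, adjusted p = 0.0027) and Psmb9 1.86-fold (log2 0.90 ± 0.18 SE, adjusted p = 0.00872). Psme2 rose 1.83-fold (log2 0.87 ± 0.23 SE, adjusted p = 0.0202) and Psme1 1.56-fold (log2 0.64 ± 0.18 SE, adjusted p = 0.0255). All 5 inducible genes were thus called higher. The calls of Psmb8 and Psmb10 held in 17 of 17 alternatives, and those of Psmb9, Psme2 and Psme1 in 15, 13 and 11, with equal sums among those that ended them (0.54, 0.51 and 0.27). Leaving out LPS liver 3 or control liver 3 ended the calls of Psme1 and Psme2, and leaving out control liver 2 that of Psme1.

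Part of the constitutive genes were higher with LPS in liver as well, where every control was also shallower than every LPS liver. Of the 41, 20 were called higher and 2 lower, with a median of 0.80 beside 0.90 for the inducible genes and 0.15 for all genes tested. With equal sums the 47 members split into 14 higher and 5 lower, against 11% of genes higher and 24.4% lower. The median of the inducible genes exceeded that of the constitutive genes by 0.098. Leaving out LPS liver 2 turned that difference to -0.19. The number of members called was 18 without LPS liver 1, 11 without LPS liver 3, 17 without control liver 2 and 16 without control liver 3. Under the stricter rule 7 members were called, all higher, Psmb8 and Psmb10 among them, against 10.9% of all genes.

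Named by size of change, Psmd13, a lid subunit, read 12.3, 7.34 and 3.17 FPKM in control livers, 65.9, 17.9 and 69.7 under LPS and 58.8, 47.6 and 58.5 under LPS+MIC-1. It rose by 2.62 ± 0.58 (SE, adjusted p = 0.0121) on the log2 scale, a call lost without LPS liver 3. Psmd10, a chaperone of cap assembly, read 2.83, 2.83 and 0.982 in control, 18.1, 6.81 and 21.7 under LPS and 12.2, 13 and 11.2 under LPS+MIC-1, and rose by 2.51 ± 0.45 (SE, adjusted p = 0.00625). Psma6 rose by 1.84 ± 0.58 (SE, adjusted p = 0.0399), although LPS liver 2 lay within the control range, and this call held in 6 of 17 alternatives. Leaving out any 1 liver other than LPS liver 2 or control liver 1 ended it. Psmb5 and Psmb7 rose by 0.99 ± 0.22 (SE, adjusted p = 0.0117) and 1.34 ± 0.37 (SE, adjusted p = 0.0247), where leaving out LPS liver 3 ended both calls and LPS liver 1, control liver 2 or control liver 3 that of Psmb7. Psmb6 stood at 0.19 ± 0.28 (SE, adjusted p = 0.615).

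Some of the largest values were not calls. Psmf1, a protein that binds the core and inhibits it in the test tube, read 10.2, 0.722 and 0.707 FPKM in control livers, 14.3, 2.21 and 14.5 under LPS and 9.40, 11.8 and 10.6 under LPS+MIC-1. Its log2 fold change with LPS was 1.75 ± 0.92 (SE, adjusted p = 0.163). Psmg3 was listed at 0 in control liver 2, at 14.5 in control liver 1 and at 1.67 in control liver 3, with 2.05 ± 1.02 (SE, adjusted p = 0.143). Psmd5 was also listed at 0 in control liver 2, beside 4.59 and 6.11 in the other controls, with 1.71 ± 0.86 (SE, adjusted p = 0.147). Psmd12 stood at 0.44 ± 0.19 (SE, adjusted p = 0.103). Psme3 and Psme4, activators that interferon does not induce, stood at 0.38 ± 0.26 (SE, adjusted p = 0.261) and 0.37 ± 0.25 (SE, adjusted p = 0.267).

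A few members fell. Psmd11 stood at -0.94 ± 0.24 (SE, adjusted p = 0.0208) and Psmd7 at -0.72 ± 0.21 (SE, adjusted p = 0.0312). Psmb11, at 0.155 to 3.87 FPKM the scarcest member kept, stood at -1.74 ± 0.40 (SE, adjusted p = 0.0138). Its mean was 3.12 FPKM in control, 0.654 under LPS and 0.616 under LPS+MIC-1. Psmb11 thus passed the minimum only through the control livers, and its lower calls follow in part from the minimum itself. By role, 4 of 7 alpha subunits, 4 of 7 constitutive beta subunits, 5 of 6 ATPases and 5 of 11 other cap subunits were called higher, with 2 of those 11 lower. Both inducible activator genes were higher, and 0 of the 4 core assembly chaperones was called. Of all genes, 19.2% were higher and 15.5% lower. Neutrophil markers, of which 4 of 5 tested were higher and 1 lower with LPS, summed to 29.5 to 44.4 FPKM in control livers, 44.1 to 106 with LPS and 30.1 to 67.3 with LPS+MIC-1. Kupffer cell markers, 1 of 5 tested higher and 2 lower with LPS, summed to 29.2 to 51.0, 36.9 to 53.9 and 50.9 to 96.1 in the same order. T and NK cell markers, 1 of 2 tested lower, summed to 12.5 to 17.1, 4.03 to 7.87 and 4.14 to 5.80, and macrophage markers, 1 of 3 higher, to 17.8 to 35.5, 43.2 to 56.0 and 29.3 to 70.3. B cell markers, 1 of 1 tested lower, summed to 3.13 to 3.88 in control livers and 0.260 to 1.25 with LPS, and dendritic cell markers, 1 of 1 lower, to 4.27 to 5.01 and 1.24 to 2.67. The part of all these lists in the rise of the inducible genes was not tested.

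For LPS+MIC-1 against LPS in liver, no member was called, and 0% of all genes were higher and 0% lower, also under the stricter rule (0%). None of the 47 members and 364 of the 10147 genes had an unadjusted p under 0.05, and the lowest adjusted p of a member was 0.997. The inducible genes stood at -0.13 for Psmb8, -0.20 for Psmb9, -0.15 for Psmb10, 0.0001 for Psme1 and 0.25 for Psme2, with standard errors from 0.18 to 0.23. Their median minus that of the constitutive genes was -0.22, and 0.075 without LPS liver 2. The 3 inducible catalytic subunits made 13.8, 20.9 and 18.3% of the FPKM of the 6 catalytic subunits in control livers, 32.3, 31.2 and 31.2% under LPS and 24.4, 27.8 and 25.5% under LPS+MIC-1. The 3 groups did not overlap in this share, a description without a test. Psmb8 over Psmb5 was 0.118, 0.258 and 0.180 in control, 0.506, 0.630 and 0.462 under LPS and 0.366, 0.406 and 0.390 under LPS+MIC-1. Psmb9 over Psmb6 was 0.117, 0.107 and 0.136, then 0.221, 0.155 and 0.226, then 0.157, 0.136 and 0.166. Psmb10 over Psmb7 ran from 0.341 to 1.31 in control and overlapped between all groups.

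For LPS+MIC-1 against control in liver, 29 of 47 members were called, 24 higher and 5 lower, against a background of 20.1% of genes higher and 16.3% lower. Psmb11, which passed the minimum only through the control livers, was among the 5 lower. All 5 inducible genes were higher: Psmb8 rose by 2.41 ± 0.19 (SE, adjusted p = 0.000335), Psmb10 by 1.52 ± 0.23 (SE, adjusted p = 0.00316), Psme2 by 1.12 ± 0.23 (SE, adjusted p = 0.0077), Psmb9 by 0.69 ± 0.18 (SE, adjusted p = 0.0188) and Psme1 by 0.64 ± 0.18 (SE, adjusted p = 0.0236). With equal sums Psmb8 and Psmb10 kept their call (1.76 and 0.87), Psme2 and Psmb9 lost it (0.47 and 0.048) and Psme1 turned to -0.016. Leaving out LPS+MIC-1 liver 3 or control liver 2 ended the calls of Psmb9 and Psme1, and leaving out LPS+MIC-1 liver 1 or control liver 3 that of Psme1. With equal sums the members split into 12 higher and 5 lower, against 7.22% of genes higher and 33.9% lower. Of the constitutive genes 19 were higher and 4 lower, with a median of 0.80 beside 1.12 for the inducible genes. Psmb4 rose by 1.93 ± 0.26 (SE, adjusted p = 0.00213), Psmb7 by 1.72 ± 0.37 (SE, adjusted p = 0.0093) and Psmb5 by 1.31 ± 0.22 (SE, adjusted p = 0.00424). Psmd11, Psmd1, Psmd7 and Psma4 were lower, from -1.13 for Psmd1 to -0.60 for Psma4. The stricter rule called 13 members, all higher, against 13.5% of all genes. This comparison and that of LPS with control share the 3 control livers.

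**Figure D4:**
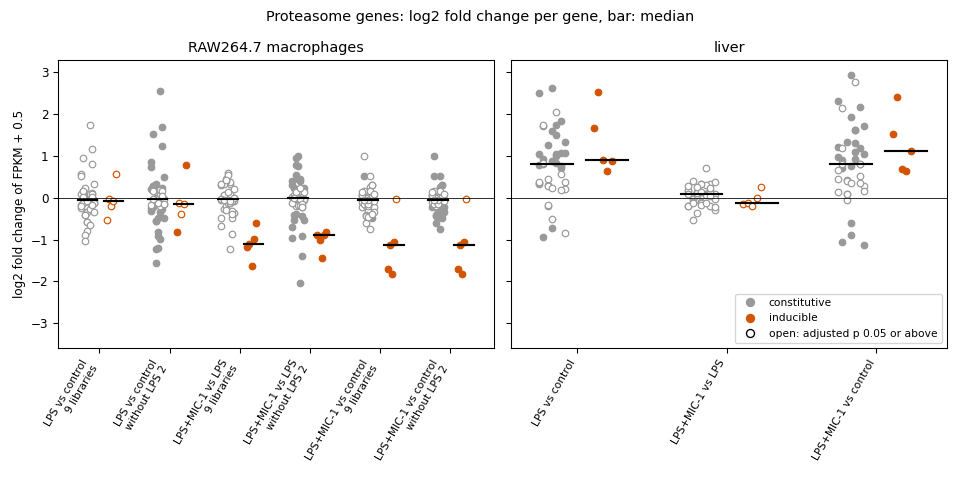
Log2 fold change of FPKM + 0.5 of each of the 41 constitutive and 5 inducible genes in each comparison, for macrophages with 9 libraries and without LPS library 2, and for liver, with the median as a bar and filled points for an adjusted p under 0.05. The inducible medians stand at -1.10 and -1.13 for LPS+MIC-1 against LPS and against control in macrophages with all 9 libraries, and at 0.90 and 1.12 for LPS and LPS+MIC-1 against control in liver.

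The wider pathway was described by 2 lists. Of 26 proteasome partners (assembly factors, ubiquitin genes, shuttles and the regulators Nfe2l1 and Nfe2l2), 24 were tested in each tissue. In macrophages, 1 was called higher and 5 lower between LPS+MIC-1 and LPS with 9 libraries, and 0 between LPS and control, beside 10.2% of all genes higher and 11.4% lower in the first. Without LPS library 2 these were 5 and 14, beside 34% and 34.1%, and for LPS against control 11 and 6, beside 36.9% and 38.2%. With equal sums as well they turned to 14 and 5, beside 67.3% and 10.5% of all genes, and to 8 and 14, beside 11.8% and 71%. Nfe2l1, a factor that drives proteasome genes when the proteasome is inhibited, read 45.9, 51.2 and 45 in control, 121, 50.3 and 116 under LPS and 84.9, 101 and 90.1 under LPS+MIC-1. In liver, 7 partners rose and 1 fell with LPS, 0 differed between LPS+MIC-1 and LPS, and 10 rose and 1 fell between LPS+MIC-1 and control, beside 19.2% and 15.5% of all genes higher and lower in the first comparison and 20.1% and 16.3% in the last. With equal sums the first and last of these were 4 and 2, beside 11% and 24.4% of all genes, and 3 and 6, beside 7.22% and 33.9%. Pomp, the chaperone that completes the core, rose there with LPS by 1.26 (adjusted p = 0.00689).

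Of 22 genes of class I presentation and interferon control, all tested in both tissues, 0 were called higher and 6 lower between LPS+MIC-1 and LPS macrophages with 9 libraries, and 1 and 12 without LPS library 2, beside 10.2% and 11.4%, and 34% and 34.1%, of all genes. With equal sums these were 2 and 5, beside 12.4% and 3.57% of all genes, and 12 and 6, beside 67.3% and 10.5%. H2-K1, a class I heavy chain, read 171, 222 and 162 FPKM in control, 733, 249 and 646 under LPS and 128, 102 and 118 under LPS+MIC-1, a log2 fold change of -2.08 between the last 2 groups (adjusted p = 0.00913). B2m, the light chain, stood at -1.75 (adjusted p = 0.0248) and H2-D1 at -1.68 (adjusted p = 0.041). Unlike Psmb8 and Psmb9, these 3 genes were higher in LPS libraries 1 and 3 than in the controls. Irf1, an interferon-induced activator of Psmb8, Psmb9 and Psmb10, read 17.6, 21.9 and 16.7 in control, 7.68, 22.3 and 5.59 under LPS and 10.1, 6.71 and 9.80 under LPS+MIC-1. LPS against control called 0 of the 22 with 9 libraries and 12 higher and 4 lower without LPS library 2, or 4 and 13 with equal sums as well. Of all genes, 36.9% were higher and 38.2% lower without LPS library 2, and 11.8% and 71% with equal sums as well. With 9 libraries 0% were called. LPS+MIC-1 against control called 1 higher and 3 lower with 9 libraries, beside 11.8% and 13% of all genes. In liver, 8 of the 22 rose with LPS and 0 fell, with 0 calls for LPS+MIC-1 against LPS and 6 higher and 1 lower against control, beside the same shares of all genes as for the partners. With equal sums the first and last of these were 4 and 1, beside 11% and 24.4% of all genes, and 2 and 3, beside 7.22% and 33.9%. Tapbp, which helps load class I molecules, read 33.2, 29.9 and 23 in control livers, 99.8, 82.2 and 106 under LPS and 102, 91.1 and 108 under LPS+MIC-1.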

How the data were processed

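RNA was sequenced at BGI. The authors pseudoaligned the reads with Kallisto 0.45.0 to a RefSeq index of mm9, used tximport for gene totals, and deposited one FPKM table per tissue, computed with DESeq2 1.20.0. The 6 tables of the authors' own comparisons, which hold mean counts, log2 fold changes, Wald statistics and p-values, were not used. Pseudoalignment divides reads between near-identical copies, so such genes are less certain. Here log2(FPKM + 0.5) of genes with a mean FPKM above 1 was fitted with limma 3.58.1 (R 4.3.3, lmFit and eBayes with a trend), the 3 groups of a tissue together, two-sided, with Benjamini-Hochberg adjustment over all genes tested of that table. A call is an adjusted p under 0.05 with no minimum fold. Fold changes are on the scale of log2(FPKM + 0.5) and understate the change of low genes. All 18 columns matched a group, and their replicate numbers were not given.

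The named genes were the 5 inducible genes, Psmb5, Psmb6, Psmb7, Psme3 and Psme4, members below the minimum, and in each tissue the 5 other members with the largest absolute log2 fold change for LPS against control and for LPS+MIC-1 against LPS, in macrophages also without LPS library 2. Others named beside a count were chosen after their values were seen. The members and the gene lists were chosen with earlier results of these data known. Alternatives were pseudocounts of 0.1 and 1, a minimum of 5 or none, 2 other scalings, 2 groups per fit, each library left out, libraries 1 and 3 averaged and a stricter rule. Combinations with LPS library 2 left out, and the averaged livers, were chosen after seeing the data. The script was tested on simulated data. Values of some genes of the pathway lists are not reported here.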

Additional observations from a re-analysis of the deposited data

Results flagged for a closer look

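For 18 pairs of gene and comparison, the 3 treated libraries of one tissue all lay below the 3 controls and those of the other tissue all lay above. The share of all genes that met the same rule is not given here. The count therefore does not show that these members are unusual. The difference between the tissues was not tested, since their values were normalised separately, and the macrophage side of LPS against control includes LPS library 2. Log2 fold changes are given for macrophages first and liver second.

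With LPS+MIC-1 against control, 4 of the 5 inducible genes were called lower in macrophages and higher in liver: Psmb8 at -1.13 and 2.41, Psmb9 at -1.82 and 0.69, Psmb10 at -1.70 and 1.52, and Psme1 at -1.05 and 0.64. In liver the sign of Psme1 turned when all libraries were given the same sum. The constitutive genes of this comparison were Psma1 at -0.22 and 1.21, Psma7 at -0.21 and 0.29, Psmc3 at -0.41 and 1.33, Psmc4 at -0.19 and 0.76, Psmd6 at -0.43 and 0.40, Psmd9 at -0.49 and 0.81, Psmd13 at -0.14 and 2.94, and Psmg2 at -0.45 and 0.36. Psmd11 went the other way, at 1.01 and -1.06.

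With LPS against control, the genes were Psma5 at -0.27 and 1.51, Psma7 at -0.12 and 0.20, Psmd6 at -0.88 and 0.27, Psmd12 at -0.41 and 0.44, and Psmd13 at -0.088 and 2.62, and no macrophage value of these 5 was called.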

How the results depend on the processing

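No paired analysis was possible because the columns of the tables carry no replicate numbers that tie a library of one group to a library of another. Counts of members called are main value first. In macrophages, LPS against control gave 0, from 0 to 29 with single libraries left out, 33 in a fit of the 2 compared groups without LPS library 2, 30 with median-of-ratios scaling without it and 46 with equal sums without it. LPS+MIC-1 against LPS gave 5, from 4 to 28 with single libraries left out, 3 in a fit of the 2 compared groups, 1 (higher) with equal sums, 0 with libraries 1 and 3 averaged and 2 under the stricter rule. Without LPS library 2 it gave 27 in the fit of the 2 groups, 28 with median-of-ratios scaling and 40 with equal sums. LPS+MIC-1 against control gave 6, from 4 to 23 with single libraries left out, 22 in the fit of the 2 groups, 0 with libraries 1 and 3 averaged, and without LPS library 2 it gave 23 with median-of-ratios scaling and 31 with equal sums. In liver, LPS against control gave 28, from 11 to 33 with single livers left out, 4 with livers 1 and 3 averaged and 7 under the stricter rule. LPS+MIC-1 against control gave 29, from 18 to 34 with single livers left out (18 without LPS+MIC-1 liver 3 and 19 without control liver 2), 17 with equal sums, 14 with livers 1 and 3 averaged and 13 under the stricter rule. LPS+MIC-1 against LPS gave 0 throughout.

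Signs turned in several cases. With equal sums and without LPS library 2, Psme2 lay at -0.20 and Psmb7 at -0.49 for LPS against control, and Psmb7 at 0.27 and Psme3 at 0.93 for LPS+MIC-1 against LPS. Under median-of-ratios scaling without that library, Psme2 lay at 0.81 and Psmb7 at 0.53 for LPS against control. Psmd11 ran from -0.52 to 0.35 for LPS+MIC-1 against LPS with single libraries left out and lay at -0.52 without LPS library 2, with all 3 groups or the 2 compared groups in the fit and also with median-of-ratios scaling, but at 0.28 without that library and with equal sums, and at 0.55 with equal sums alone. Psmb1 lay at -0.14 for LPS against control with equal sums and without LPS library 2, and in liver Psmb6, not called, lay at -0.18 at its lowest for LPS against control. In liver Psme1 lay at -0.016 for LPS+MIC-1 against control with equal sums. The cause of these changes was not tested, beyond the settings' own construction. The difference between inducible and constitutive medians was also computed with single libraries left out. In macrophages it ran from -1.18 to -0.86 for LPS+MIC-1 against LPS and against control. For LPS against control there it ran from -0.11 to 0.067. In liver it ran from -0.19 to 0.23 for LPS against control and from -0.28 to 0.075 for LPS+MIC-1 against LPS. For LPS+MIC-1 against control in liver it ran from 0.15 to 0.43. Its sign was thus not stable for LPS against control in either tissue, or for LPS+MIC-1 against LPS in liver. The scalings cannot move this difference apart from the pseudocount. With an estimated 3710000 and 3610000 reads, control livers 2 and 3 limit what can be seen of low genes such as Psmd5, Psmg3 and Psmd10. Every control liver was also shallower than every LPS and LPS+MIC-1 liver. The part of depth in the liver differences from control was not tested. In simulated data, 100 genes changed by 1 on the log2 scale and 100 by 2, among 10147 genes for liver and 9905 for macrophages. Of these changes, 20% and 67% were called for liver LPS against control. For macrophage LPS against control these rates were 47% and 78% with 9 libraries and 73% and 95% without LPS library 2. In the measured macrophages, 0% of genes were called higher and 0% lower in that comparison with 9 libraries. How the rates with 9 libraries apply when LPS library 2 lies near the controls was not tested. Far larger shares were called in the measured livers (19.2% higher, 15.5% lower) and in the macrophages without LPS library 2 (36.9% and 38.2%). The adjusted p depends on how many genes change. The simulated rates therefore do not give the detection rates of the measured comparisons.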

Other observations

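Psmb11, below the minimum in macrophages, read 0.102, 0.176 and 0.125 FPKM in control, 0.882, 0.0556 and 0.976 under LPS and 0.170, 0.183 and 0.262 under LPS+MIC-1, so that LPS libraries 1 and 3 stood above the other 7. Psma8 was listed at 0 in 8 of the 9 livers and read 0.195 FPKM in LPS liver 1, while in macrophages it read 9.28 to 13.7 FPKM in all 9 libraries.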
